A study of Mus musculus with 2 samples.

Results

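The uncoupling proteins of the inner mitochondrial membrane are encoded by Ucp1, Ucp2 and Ucp3. These 3 genes were taken by symbol, with all their transcripts, out of 15523 genes that had a read in polyadenylated RNA from interscapular brown adipose tissue, a fat depot specialised in making heat. Native RNA molecules were read one at a time on a nanopore (direct RNA sequencing), without copying into cDNA and without amplification. The cold library came from a pool of 3 male wild type C57BL/6N mice of 20 weeks, each housed singly at 4 °C for 24 h, and it held 1215617 reads. The ctrl library came from the same strain, sex and age and held 1698124 reads. Its treatment label reads ctrl, while the protocol text attached to it repeats the stay in the cold, and neither its number of mice nor its housing during those 24 h is given in the sources used here. General housing was at 22 to 24 °C. Each group is a single library, so the data hold no replicate error, the conditions could not be tested and p-values are absent. Ratios and shares are followed in parentheses by 95% intervals that cover counting error only and describe a difference between 2 libraries.

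Uncoupling protein 1 carries protons back into the mitochondrial matrix when fatty acids are present, so that respiration releases heat in place of ATP. It is activated when noradrenaline drives lipolysis in brown adipocytes, and it is inhibited by purine nucleotides. Its relatives UCP2 and UCP3 belong to the same SLC25 family of mitochondrial carriers. UCP2 is found in many tissues, immune cells among them, and is linked to the exchange of C4 metabolites for phosphate. UCP3 is found in skeletal muscle and brown fat and is linked to fatty acid use. Neither is required for the heat production of brown fat in mice.

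A stretch of 60 coding bases of each gene is shown because it holds the longest run of identical bases between Ucp2 and Ucp3, 24 bases, and so shows how far a read can be told apart between these relatives. The sequences were read from the GENCODE M21 transcripts, positions are counted from the A of the start codon, and capitals mark bases that differ from Ucp2 in the same place.
Ucp1, coding bases 532 to 591: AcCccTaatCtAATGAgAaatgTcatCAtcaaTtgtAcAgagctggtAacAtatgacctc
Ucp2, coding bases 538 to 597: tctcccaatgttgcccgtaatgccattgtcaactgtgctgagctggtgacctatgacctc
Ucp3, coding bases 535 to 594: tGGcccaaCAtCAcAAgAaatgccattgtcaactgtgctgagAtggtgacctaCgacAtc
Within this stretch Ucp1 differed from Ucp2 at 18 bases and Ucp3 differed from Ucp2 at 12. Over the whole coding sequences, which without the stop codon are 921, 927 and 924 bases long for Ucp1, Ucp2 and Ucp3, identity was 75.2% between Ucp2 and Ucp3. It was 61.6% between Ucp1 and Ucp2 and 63.1% between Ucp1 and Ucp3. No pair of these coding sequences shared a run of 31 bases. Words of 31 bases from the main transcripts of Ucp1 and Ucp3 occurred in no other gene of the annotation, while the Ucp2 transcript shared at most 7 of its 3958 words with any 1 of 92 other genes.

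The bases upstream of each gene, from 250 before the RefSeq start up to the first annotated transcript, are shown to set the 3 genes side by side at their start sites. They come from RefSeq (GRCm38.p6, plus strand, 5′ to 3′). Capitals mark matches on either strand to 6 short motifs, none of which overlapped another in these windows. The motif TATATA is a TATA-like string, and TATAAA is the common form of the TATA box. The CCAAT box and the GC box, spelled as GGGCGG, are general promoter elements. The string TGACG is a half-site of cAMP response elements, and AGGTCA is a half-site bound by nuclear receptors.
Ucp1, chr8:83290098-83290347: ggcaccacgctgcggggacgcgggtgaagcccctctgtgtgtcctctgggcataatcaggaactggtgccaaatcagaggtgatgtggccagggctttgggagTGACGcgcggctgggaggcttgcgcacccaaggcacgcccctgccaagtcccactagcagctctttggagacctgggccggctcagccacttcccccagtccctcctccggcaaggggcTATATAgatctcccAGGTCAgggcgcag
Ucp2, chr7:100493108-100493336: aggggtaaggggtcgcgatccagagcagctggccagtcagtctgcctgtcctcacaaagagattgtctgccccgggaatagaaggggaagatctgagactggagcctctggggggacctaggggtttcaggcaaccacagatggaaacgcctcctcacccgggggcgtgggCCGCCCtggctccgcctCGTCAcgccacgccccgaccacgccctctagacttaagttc
Ucp3, chr7:100472741-100472989: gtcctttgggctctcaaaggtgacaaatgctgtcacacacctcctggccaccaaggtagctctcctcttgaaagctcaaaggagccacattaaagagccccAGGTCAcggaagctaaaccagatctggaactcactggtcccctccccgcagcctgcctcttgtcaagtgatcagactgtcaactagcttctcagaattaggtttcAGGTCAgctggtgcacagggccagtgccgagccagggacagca
In Ucp1, TATATA began 28 bases, AGGTCA 14 bases and TGACG 147 bases before the RefSeq start. The Ucp2 window held no TATA-like match, but GGGCGG and TGACG on the minus strand, whose leftmost bases lay 79 and 62 bases before the start. Ucp3 held AGGTCA at 149 and 44 bases before the start and none of the other motifs. Among the first 250 bases of 32851 RefSeq promoters, TATATA was found in 5.25% of promoters and TATAAA in 12.4%. The CCAAT box was found in 33.8%, the GC box in 32.7%, the TGACG string in 17.8% and the nuclear receptor half-site in 14.0%. In the shorter windows of Ucp2 (229 bases) and Ucp3 (249 bases), the TGACG string was found in 15.8% and 17.7% of promoters, and in the Ucp3 length the nuclear receptor half-site in 14.0%. The GC box was found in 29.7% of windows of the Ucp2 length. G and C made up 64.8%, 63.3% and 54.6% of the Ucp1, Ucp2 and Ucp3 windows, against a median of 52.4% over all promoters. A match is a string of letters and not a binding site, and the distal enhancer of Ucp1 lies outside this window.

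On GRCm38, Ucp1 lies on the plus strand of chromosome 8 (83290352 to 83298452) and overlaps no other annotated gene. Ucp3 (chromosome 7, 100472990 to 100486432) and Ucp2 (chromosome 7, 100493337 to 100502020) lie side by side on the plus strand, with 6904 bases between the end of Ucp3 and the start of Ucp2. Each of this pair overlaps a gene on the other strand. The last 305 bases of Ucp2, all exonic, overlap Dnajb13, which had 3 reads in the cold and 2 in the ctrl library. The first 1857 bases of Ucp3, of which 104 are exonic, overlap the antisense gene Gm10603, with 6 and 11 reads. How the authors' counting used strand is not given in the sources used here.

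Ucp1 was by far the most abundant uncoupling protein transcript in both libraries. It had 14526 reads in the cold library, or 1.19% of all reads (1.18 to 1.21), and 14860 reads in the ctrl library, or 0.875% (0.861 to 0.889). Among reads that were neither mitochondrially encoded nor from nuclear copies of mitochondrial genes, it took 1.88% (1.85 to 1.91) in the cold library and 1.50% (1.47 to 1.52) in the ctrl library. Levels of different genes were compared per kilobase of annotated transcript, a scale that favours short transcripts where each read is 1 molecule. On that scale Ucp1 stood at 7304 RPKM (reads per kilobase and per 1000000 reads) in the cold library and 5349 in the ctrl library. It was the second gene outside the mitochondrial genome and its copies in the cold library, after the fatty acid binding protein gene Fabp4, and the fifth in the ctrl library. There Fabp4, Cox8b, Dbi, which encodes acyl-CoA binding protein, and the cytochrome c oxidase subunit gene Cox6a1 stood above it. By reads alone, Ucp1 took place 2 in the cold library, after Fabp4. In the ctrl library it took place 4, after Scd1, Fabp4 and Fasn.

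Ucp2 and Ucp3 were minor transcripts, given here also in RPM (reads per 1000000 reads). Ucp2 had 80 reads in the cold library, or 65.8 RPM (52.2 to 81.9), and 69 reads in the ctrl library, or 40.6 RPM (31.6 to 51.4). Ucp3 had 138 reads in the cold library, or 114 RPM (95.4 to 134), and 179 reads in the ctrl library, or 105 RPM (90.5 to 122). Per kilobase, Ucp3 stood at 46.7 RPKM in the cold and 43.6 RPKM in the ctrl library, and Ucp2 at 16.5 and 10.2 RPKM. The order of these per-kilobase levels from high to low was Ucp1, Ucp3, Ucp2 in both libraries. Per kilobase, Ucp1 exceeded Ucp3 156-fold in the cold library and 123-fold in the ctrl library. It exceeded Ucp2 443-fold and 525-fold. By reads alone, without division by length, Ucp1 exceeded Ucp3 105-fold and 83.0-fold, and Ucp2 182-fold and 215-fold. Of the reads of all 3 genes together, Ucp1 gave 98.5% (98.3 to 98.7) in the cold and 98.4% (98.1 to 98.6) in the ctrl library.

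**Figure D1:**
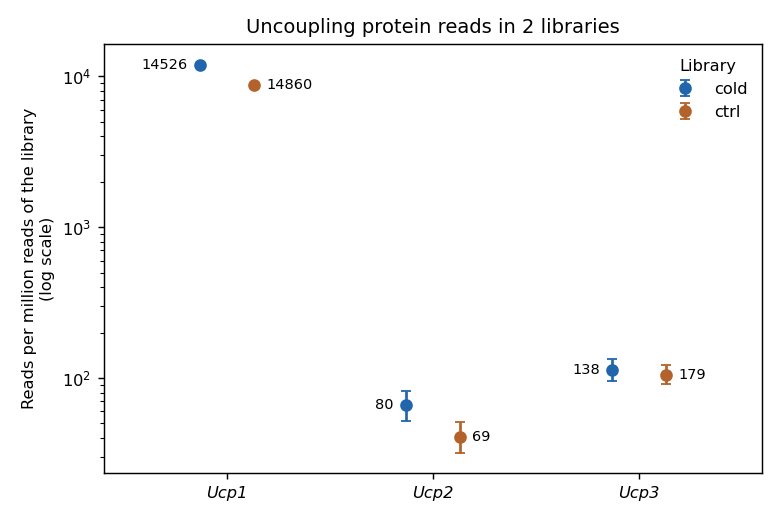
RPM on a log axis for Ucp1, Ucp2 and Ucp3, with the cold library left of the ctrl library for each gene, 95% exact binomial intervals as bars and the read count beside each point. Ucp1 lies at 11950 RPM in the cold and 8751 in the ctrl library, far above Ucp2 and Ucp3 in both.

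For the comparison of the 2 libraries, library sizes were scaled by the trimmed mean of M values (TMM), under which the median gene lay at a log2 ratio of 0.00. Ucp1 was 1.21-fold higher in the cold library (1.18 to 1.23) and Ucp2 1.43-fold higher (1.02 to 2.00), while the interval of Ucp3 held 1, at a ratio of 0.951 (0.756 to 1.19). So 2 of the 3 genes had an interval above a ratio of 1. Of the 7515 genes whose reads summed to 20 or more, 11.3% had such an interval, 11.3% had one below 1, and 77.4% had one that held 1, as Ucp3 did. With total counts in place of this scaling, 18.1% of these genes had an interval above 1 and 6.20% one below. None of the 3 was 2-fold apart, as were 4.18% (higher) and 4.07% (lower) of these genes with an interval that excluded 1. The log2 ratios of 0.27, 0.51 and -0.07 for Ucp1, Ucp2 and Ucp3 lay above those of 70.1%, 83.1% and 44.6% of the same genes.

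The number of reads set what could be seen. At the 29386 reads that Ucp1 had in both libraries, a ratio of 1.02 would already have had an interval above 1. For Ucp2, with 149 reads, the smallest such ratio was 1.43, the value it had, so its interval lay just above 1. For Ucp3, with 317 reads, differences of less than 1.26-fold in either direction were not detectable at this depth. In a bulk tissue, fewer cells of a type and less RNA per cell cannot be told apart.

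Scaling changed the size of these ratios more than counting error did for Ucp1. With total counts in place of TMM, Ucp1 was 1.37-fold higher in the cold library (1.33 to 1.40), Ucp2 1.62-fold higher (1.16 to 2.27) and Ucp3 at a ratio of 1.08 (0.856 to 1.35), which turned its direction. Total counts moved the log2 ratio of the median gene to 0.18, a shift that every gene shares. With DESeq2 size factors the ratios were 1.18 for Ucp1, 1.40 for Ucp2 and 0.933 for Ucp3. The interval of Ucp2 then began at 1.00.

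**Figure D2:**
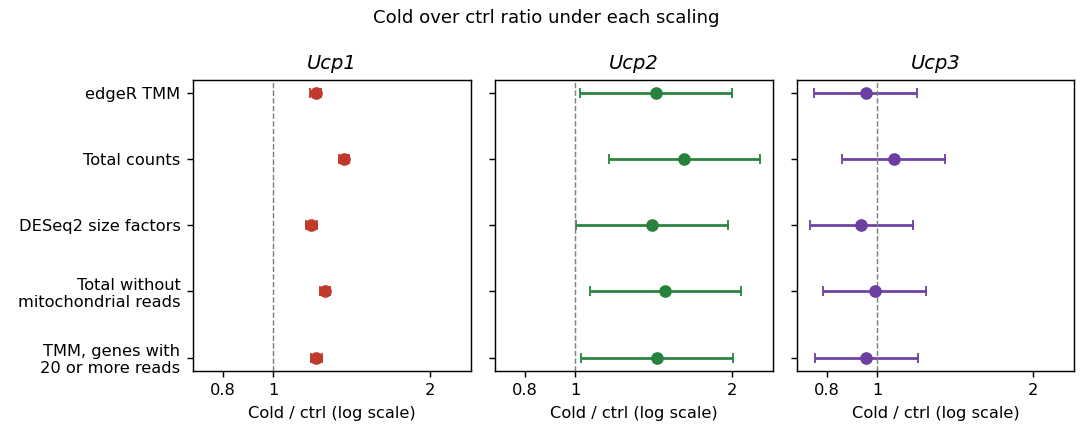
Ratio of the cold to the ctrl library on a log axis for each gene under 5 ways of scaling the libraries, with 95% exact counting intervals as bars and a dashed line at 1. Ucp1 lies between 1.18 and 1.37 and Ucp2 between 1.40 and 1.62, both above 1 throughout, and every interval of Ucp3 holds 1.

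Pairs of genes were also compared within each library, which needs no scaling. There were 105 Ucp1 reads for each Ucp3 read in the cold library (89.0 to 125) and 83.0 in the ctrl library (71.6 to 96.7). The ratio of these ratios was 1.27 (1.01 to 1.60), so Ucp1 was higher relative to Ucp3 in the cold library by little more than counting error. For Ucp1 against Ucp2 there were 182 reads (146 to 229) per Ucp2 read in the cold and 215 (170 to 277) in the ctrl library, and the ratio of ratios of 0.843 (0.601 to 1.18) held 1. For Ucp2 against Ucp3 it was 1.50 (0.998 to 2.27), which also held 1. The intervals of these 3 pairs were not adjusted for their number.

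The 3 genes have 16 annotated transcripts, of which 6 had a read in at least 1 library. Ucp1 has a single annotated transcript, Ucp1-201 (ENSMUST00000034146.4), of 1636 bases in 6 exons, and it took all Ucp1 reads. All Ucp2 reads were assigned to 1 of 11 annotated transcripts, Ucp2-202 (ENSMUST00000126534.7), of 3988 bases in 8 exons. Its annotated 3′ part after the coding sequence is 2673 bases long, against 484 in Ucp1-201 and 1327 in Ucp3-201. The other 10 Ucp2 transcripts were not listed in either file. With 0 of 80 cold and 0 of 69 ctrl reads, a limit of 3 counts allows each a share of up to 3.75% and 4.35%. The exact 95% interval of these zeros reaches 4.51% and 5.21%. Ucp2-202 is annotated up to 8683 bases from the gene start, while none of the other 10 reaches beyond 5965. Reads that hold only this last part can be assigned to Ucp2-202 alone. The limits therefore hold for reads as assigned and do not bound the true share of the other forms.

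Ucp3 had reads assigned to all 4 of its annotated transcripts, nearly all of them to the main coding form. Ucp3-201 had 133 reads in the cold library, 96.4% of the gene (91.7 to 98.8), and 174 reads in the ctrl library, 97.2% (93.6 to 99.1). Ucp3-202, a coding form that also has 924 coding bases and has an earlier annotated end, had 0 reads in the cold and 2 in the ctrl library. The retained-intron form Ucp3-203 had 4 reads in the cold and 3 in the ctrl library. It keeps introns 2 and 3 of the main form, of 493 and 193 bases. Ucp3-204, which keeps intron 3 alone, had 1 read in the cold and 0 in the ctrl library. Together the 3 minor forms took 3.62% of Ucp3 reads in the cold library (1.19 to 8.25) and 2.79% in the ctrl library (0.913 to 6.40). The difference of 0.830 percentage points (-3.30 to 5.68) held 0, so a change in the assigned forms was not detectable at this depth. Ucp3-201 is annotated up to 13442 bases from the gene start, while none of the 3 minor forms reaches beyond 12436. Reads that hold only this last part can be assigned to Ucp3-201 alone. The shares therefore hold for reads as assigned and do not bound the true share of the minor forms.

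**Figure D3:**
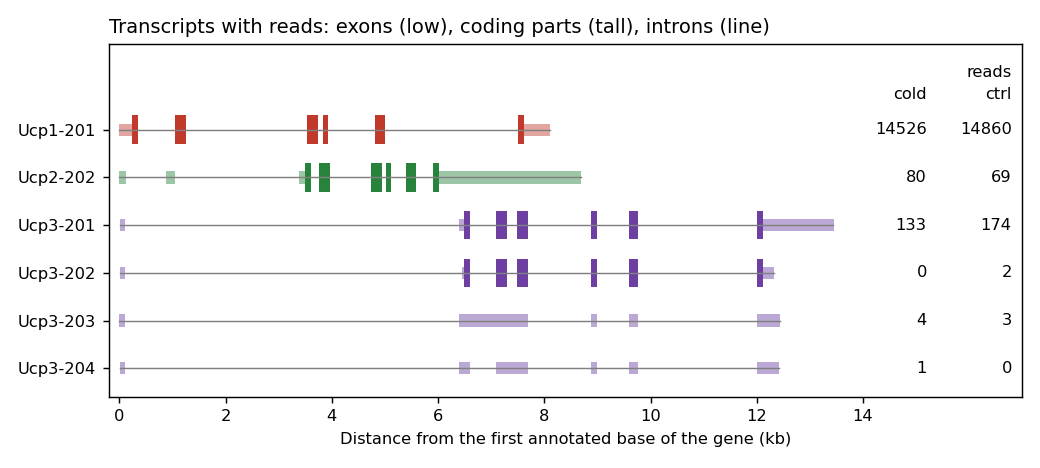
Map to scale of the 6 transcripts with reads, as distance in kilobases from the first annotated base of each gene, with exons as low boxes, coding parts as tall boxes and introns as lines; read counts of the cold and ctrl libraries stand at the right. Ucp3-203 and Ucp3-204 carry the retained introns and have 4 and 1 reads in the cold library, against 3 and 0 in the ctrl library.

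Set among the mitochondrial carriers of the SLC25 family, Ucp1 was the most abundant member in both libraries. Of the 50 annotated genes (47 with an Slc25a symbol and the 3 uncoupling proteins), 44 had reads. Ucp1 gave 68.1% of the family's reads in the cold library (67.5 to 68.7) and 63.6% in the ctrl library (62.9 to 64.2), and 70.9% and 66.2% per kilobase. Much of this difference lay with Slc25a1, the carrier that exports citrate for fatty acid synthesis, which had 211 reads in the cold and 1477 in the ctrl library. Without Slc25a1, a choice made after its values were seen, Ucp1 gave 68.8% (68.1 to 69.4) in the cold and 67.9% (67.2 to 68.5) in the ctrl library.

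The ADP/ATP carriers Slc25a4 and Slc25a5, which exchange matrix ATP for cytosolic ADP and also let protons leak, had ratios close to that of Ucp1. Slc25a5 had 1024 reads in the cold and 1039 in the ctrl library and was 1.22-fold higher in the cold library (1.11 to 1.33). Slc25a4 had 666 and 677 reads and was 1.21-fold higher (1.09 to 1.35). There were 8.60 Ucp1 reads for each read of this pair in the cold library and 8.66 in the ctrl library, a ratio of ratios of 0.993 (0.924 to 1.07), so Ucp1 and the carriers differed between the libraries by like ratios. These pairs of genes were set against Ucp1 after their values were seen.

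The other close relatives had fewer reads than the ADP/ATP carriers. The oxoglutarate carrier Slc25a11 had 246 reads in the cold and 300 in the ctrl library, a ratio of 1.01 (0.851 to 1.20), and the dicarboxylate carrier Slc25a10 had 25 and 31 reads, a ratio of 0.994 (0.563 to 1.74). The carriers once named as further uncoupling proteins were at or near 0. Slc25a14 had 0 reads in the cold and 2 in the ctrl library, Slc25a27 had 1 in each and Slc25a30 had 2 in each. Of the 31 family members with at least 20 summed reads, Ucp2, Ucp1 and Ucp3 took places 9, 14 and 21 in the order of ratios. The median log2 ratio of the 28 without the uncoupling proteins was 0.19, with 12 intervals above a ratio of 1, 5 below and 11 that held 1. Of all genes with at least 20 summed reads, 11.3% had an interval above 1 and 11.3% one below. Slc25a34, an orphan carrier, stood highest at 15.7-fold (8.51 to 32.2) and Slc25a1 lowest at 5.68-fold lower (4.91 to 6.59).

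**Figure D4:**
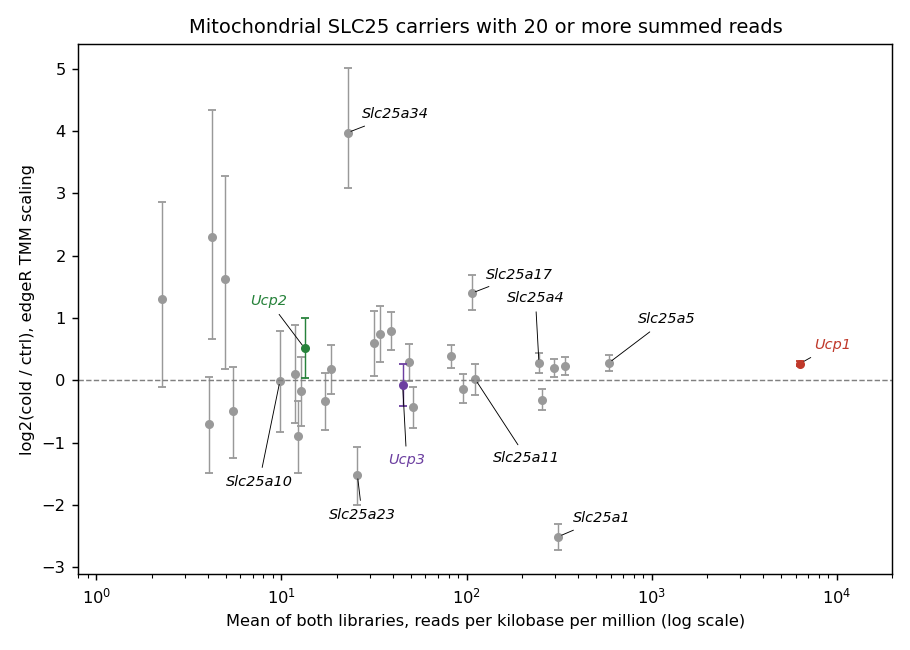
The 31 SLC25 carriers with at least 20 summed reads, by mean level in RPKM (log axis) and by the log2 ratio of the cold to the ctrl library after TMM scaling, with 95% counting intervals as bars and the 3 uncoupling proteins in colour. Ucp1 stands alone at the right at a log2 ratio of 0.27, level with Slc25a4 and Slc25a5. By level, Ucp3 takes place 14 in the cold and 13 in the ctrl library, and Ucp2 places 20 and 24.

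Genes that act on Ucp1 transcription were described next. Of 18 listed activators, 15 had at least 20 summed reads, and 5 had an interval above a ratio of 1 and none below, with a median log2 ratio of 0.21. For this and the lists below, the shares over all genes with at least 20 summed reads were 11.3% above and 11.3% below 1. At least 2-fold higher were 4.18%. Among genes with at least 100 summed reads, 19.2% had an interval above 1 and 20.1% one below, so these shares depend on depth. Ppargc1a, the coactivator that couples cAMP signalling to mitochondrial genes, had 132 reads in the cold and 27 in the ctrl library and was 6.03-fold higher (3.96 to 9.49). Its partner Ppara, the fatty acid receptor, was 2.19-fold higher (1.26 to 3.87) on 39 and 22 reads. Cebpb, a factor of adipocyte differentiation, had 816 and 880 reads and was 1.14-fold higher (1.04 to 1.26). The receptor Pparg had 185 and 262 reads, at a ratio of 0.871 (0.717 to 1.06), and Cebpa 524 and 682, at 0.947 (0.844 to 1.06). Prdm16, which fixes brown fat identity, had 20 and 34 reads, at 0.725 (0.396 to 1.30).

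Of 8 listed repressors of Ucp1, 4 had enough reads, and the intervals of all 4 held a ratio of 1. Among them were Nr1h3, the liver X receptor alpha, at 0.881 (0.639 to 1.21) on 70 and 98 reads, Rb1 at 0.767 (0.461 to 1.26) on 28 and 45 reads, and Twist1 at 1.34 (0.737 to 2.43) on 26 and 24 reads. Set against its coactivator, Ucp1 had 110 reads for each Ppargc1a read in the cold library and 550.4 in the ctrl library, a ratio of ratios of 0.200 (0.127 to 0.304). Dio2, which activates thyroid hormone, gave a like value of 0.203 (0.151 to 0.270). Dio2 itself, with 284 reads in the cold and 59 in the ctrl library, stood 5.94-fold higher in the cold library.

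Genes of the path from the adrenergic receptor to fatty acids, the activators of UCP1 protein, were divided after TMM scaling. Of the 13 with enough reads, 6 had an interval above a ratio of 1 and 3 below, and the median log2 ratio was 0.17. Total counts raise every log2 ratio alike and gave a median of 0.35, so the calls below 1 depend on the scaling. Higher in the cold library were Cpt1b, the gate for fatty acids into mitochondria, at 1.53-fold (1.35 to 1.74) on 562 and 453 reads, and Gnas, which encodes the stimulatory G protein, at 1.32-fold (1.27 to 1.37) on 5194 and 4846 reads. Lower were Lipe, hormone-sensitive lipase, at 1.21-fold lower (1.11 to 1.32) on 848 and 1264 reads, and Prkaca, the catalytic subunit of protein kinase A, at 1.18-fold lower (1.01 to 1.39) on 267 and 390 reads. The main receptor of brown adipocytes, Adrb3, had 96 and 134 reads, at a ratio of 0.883 (0.673 to 1.16), and was named after its values were seen.

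Heat can also be made without UCP1, by cycles of creatine, calcium or glycerol that use up ATP. Of the 10 such genes with enough reads, 7 had an interval above a ratio of 1, 6 of them at least 2-fold higher, and the median log2 ratio was 1.70, or 0.64 over all 13 with at least 1 read. Ckb, the creatine kinase of the creatine cycle, had 1089 reads in the cold and 49 in the ctrl library and was 27.4-fold higher (20.6 to 37.3). Gk, glycerol kinase, was 2.80-fold higher (2.42 to 3.24) on 613 and 270 reads. On 364 and 288 reads the calcium pump Atp2a2 was 1.56-fold higher (1.33 to 1.83), and Atp2a1, also a muscle gene, 4.95-fold higher (3.80 to 6.51) on 285 and 71 reads. Pm20d1, whose enzyme makes uncoupling N-acyl amino acids, had 27 and 42 reads, at a ratio of 0.793 (0.470 to 1.32). Muscle markers were higher in the same library, with a median log2 ratio of 2.24. Of the 6 genes at least 2-fold higher, Atp2a1 and Ryr1 (6.99-fold, 2.02 to 37.2) stand on the muscle list, and Ckmt2 (3.90-fold, 2.00 to 8.21), the mitochondrial creatine kinase of muscle, is a muscle gene too. Without Atp2a1 and Ryr1, a choice made after their values were seen, the median log2 ratio was 1.06, with 5 of 8 intervals above 1. Without Ckmt2 as well it was 0.64, with 4 of 7 above 1. The part of muscle RNA in these ratios was not tested.

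The tissue label was set beside a list of brown adipocyte markers. Adipoq, Pparg and Plin1 on this list are not particular to brown fat. All 16 brown adipocyte markers besides Ucp1 had reads in both libraries, 0.904% of reads in the cold (0.887 to 0.921) and 0.716% in the ctrl library (0.704 to 0.729). Of the 15 with enough reads, 7 had an interval above a ratio of 1 and 2 below, with a median log2 ratio of 0.17. At least 2-fold higher were 3 of the 15, against 4.18% of all genes with at least 20 summed reads. These were Ppargc1a at 6.03-fold and Dio2 at 5.94-fold, both described above, and Elovl3 at 5.01-fold (4.25 to 5.93) on 731 and 180 reads. Elovl3 was named after its values were seen. Cidea, a lipid droplet protein, was 1.31-fold higher in the cold library (1.25 to 1.38) on 3408 and 3205 reads. Cox8b was 1.39-fold lower (1.32 to 1.46) on 2431 and 4164 reads, and Adipoq, adiponectin, 1.52-fold lower (1.36 to 1.70) on 490 and 921 reads. There were 4.26 Ucp1 reads per Cidea read in the cold library and 4.64 in the ctrl library, but 5.98 and 3.57 per Cox8b read.

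Skeletal muscle expresses Ucp3, and muscle markers were higher in the cold library. All 20 markers had reads in both libraries, with 0.217% of reads in the cold (0.208 to 0.225) and 0.0469% in the ctrl library (0.0437 to 0.0503). All 19 with enough reads had an interval above a ratio of 1, with a median log2 ratio of 2.24. Acta1, skeletal actin, had 550 and 145 reads and was 4.68-fold higher (3.89 to 5.66), and Mb, myoglobin, had 142 and 27 reads and was 6.49-fold higher (4.28 to 10.2). The ratio of Ucp3, 0.951, lay below all of these 19. There were 0.0524 Ucp3 reads for each read of the marker list in the cold library and 0.225 in the ctrl library, a ratio of ratios of 0.233 (0.183 to 0.297). The part of muscle RNA in the level of Ucp3 was not tested.

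Ucp2 is a gene of immune cells too. Macrophage and monocyte markers were sparse, with 152 reads in the cold library, 0.0125% (0.0106 to 0.0147), and 125 reads in the ctrl library, 0.00736% (0.00613 to 0.00877). Of the 15 markers, 4 had enough reads, 2 of them with an interval above a ratio of 1. These were Lyz2, lysozyme, at 1.79-fold (1.11 to 2.93) on 45 and 31 reads, and C1qa, a complement subunit, at 1.91-fold (1.06 to 3.54) on 31 and 20 reads. The intervals of the other two held 1, at 1.60 (0.809 to 3.20) for C1qb on 22 and 17 reads and 0.763 (0.351 to 1.60) for C1qc on 13 and 21 reads, both of the same complement complex as C1qa. Below 20 summed reads, Mrc1 had 6 and 8, Cd14 had 4 and 6, and Cd68 had 5 and 9. The other way went Csf1r with 10 and 7, Ctss with 5 and 1, and Cd163 with 4 and 3. Adgre1 was at 0 in the cold library, and Aif1, Fcgr1, Itgam and Ptprc were at 0 in the ctrl library. There were 0.526 Ucp2 reads for each read of this list in the cold library and 0.552 in the ctrl library, a ratio of ratios of 0.953 (0.627 to 1.45). The part of macrophage RNA in the level of Ucp2 was not tested. Of 10 lymphocyte markers, 6 were at 0 in the cold and 7 in the ctrl library, and the list had 4 and 3 reads in all.

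White adipocyte markers had 415 reads in the cold and 198 in the ctrl library, with Hoxc9 at 0 in both and Trem2 at 0 in the ctrl library. Of the 4 with enough reads, 3 had an interval above a ratio of 1 and 1 below, with a median log2 ratio of 1.47. Npr3, a natriuretic peptide receptor, was 3.73-fold higher (2.91 to 4.81) and Retn, resistin, 2.08-fold higher (1.53 to 2.84). Nnat, neuronatin, had 22 reads in the cold and 1 in the ctrl library, a ratio of 27.1 (4.39 to 1120). Lep, the white fat hormone leptin, went the other way, with 5 and 36 reads and a level 5.84-fold lower (2.28 to 19.1). Nnat and Lep were named after their values were seen. Endothelial markers had 2514 and 2172 reads, of which Cd36 alone, which is not particular to endothelium, gave 1851 and 1505. Of 11, 3 had an interval above a ratio of 1 and none below, with a median log2 ratio of 0.35. Gpihbp1, which anchors lipoprotein lipase on capillaries, led at 1.55-fold (1.23 to 1.97). The others above 1 were Cdh5 at 1.55-fold (1.12 to 2.15) and Cd36 at 1.52-fold (1.42 to 1.62). Intervals of the remaining 8 held 1, among them Flt1 at 0.946 (0.656 to 1.36) and Emcn at 0.632 (0.355 to 1.09).

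**Figure D5:**
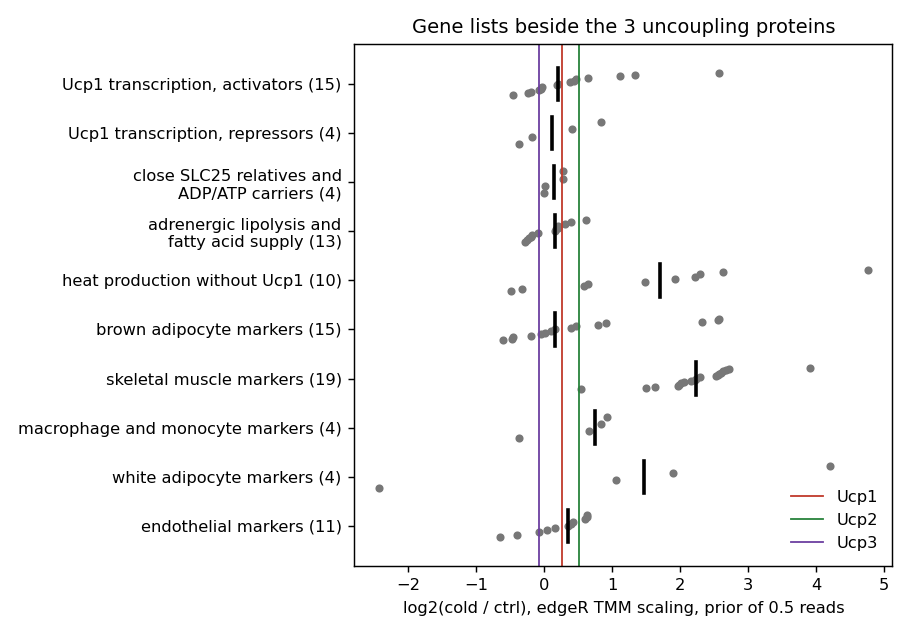
Log2 ratio of the cold to the ctrl library for each gene with at least 20 summed reads on 10 lists (grey points, number of genes in brackets), with the list median as a black bar and the 3 uncoupling proteins as coloured vertical lines. Ucp1 (0.27) lies near the medians of most lists, and the medians of the lists for muscle (2.24), heat production without Ucp1 (1.70, or 0.64 with at least 1 read), white adipocytes (1.47) and macrophages (0.75) lie to its right.

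With 2 libraries, likeness between genes comes down to a single ratio. Of the 9 genes with between 0.5 and 2 times the reads of Ucp1, Fabp4 lay closest, at a log2 ratio of 0.31 on 20787 reads in the cold and 20610 in the ctrl library, followed by mt-Co1 at 0.42 and Gpd1, glycerol 3-phosphate dehydrogenase, at 0.01. Ucp2 was matched to within 0.01 by Ly6a, Cdc42bpb and Nudt14, out of 2444 genes of like read number. Btf3l4, Tcf25 and Herpud1 matched Ucp3 equally closely out of 1264.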

How the data were processed

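Poly(A)+ RNA was selected on oligo(dT) beads and sequenced natively from 500 ng, per the labels' protocols, which speak of another fat depot in the extraction step than the tissue field. The authors deposited whole-number read counts per Ensembl transcript, not normalized, listing only transcripts with at least 1 read. The submitters' processing notes name minimap2 and GRCm38. The sources used here give no versions, no annotation release and no account of reads that match several transcripts.

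Groups came from the treatment characteristic. Transcripts were tied to genes by identifier without version in GENCODE M21 (GRCm38), and counts were summed to genes. No gene was found for 0.0652% of cold and 0.0571% of ctrl reads, which stayed in the library sizes. Totals were 1215617 (cold) and 1698124 (ctrl) reads, multiplied by edgeR 4.0.16 TMM factors of 1.06 and 0.940. Ratios are of scaled counts, with exact Clopper-Pearson intervals of the cold share. Log2 ratios used a prior of 0.5 reads. Single shares have exact binomial intervals and differences of shares Newcombe intervals, and ratios of ratios have exact conditional intervals. A gene's level per kilobase sums reads over annotated length of each transcript. Each native read is 1 molecule, so this scale favours short transcripts, and it depends on annotated ends. All intervals and the floor of 3 counts for a transcript at 0 cover counting error only. Coding sequences were aligned with Biopython 1.88 (match 1, mismatch -1, gap -5, extension -1). The code for ratios and intervals was run on counts simulated with counting error alone. Such a run checks the code and cannot show the error between animals or libraries.

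The members and gene lists were chosen with earlier results of these data known. Genes named are the 3 members, their close relatives, the 3 genes of nearest ratio for each member, and from each list up to 2 with the highest ratio, 2 with the lowest and 2 with the highest level, with at least 50 summed reads. Part of these are described. Adrb3, Slc25a1, Slc25a34, Ryr1, Ckmt2, Elovl3, Cdh5, Nnat and Lep were named after their values were seen. So were the macrophage markers other than Lyz2 and C1qa, the gene pairs and the genes above Ucp1 in level. Genes with at least 20 summed reads were counted. Alternatives were other scalings, read minimums of 1 and 100, the main transcript alone and coding transcripts alone. Carrier genes with processed copies, such as Slc25a5, and reads shared between nuclear and mitochondrial copies are uncertain in their split.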

Additional observations from a re-analysis of the deposited data

How the results depend on the processing

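With 1 library per group, no alternative could test the conditions, and low read numbers limit Ucp2 and Ucp3. The ratio of Ucp1 moved out of its counting interval to 1.37 with total counts and to 1.26 with total counts free of mitochondrial genes and their copies. It stayed inside at 1.18 with DESeq2 size factors, at 1.21 with TMM over genes with at least 20 reads and at 1.21 with the main transcript alone. The ratios of Ucp2 (1.40 to 1.62) and Ucp3 (0.933 to 1.08) stayed inside their intervals in all 5 alternatives. For Ucp3 the direction turned with total counts, where its interval also held 1. Counted among coding transcripts alone, the share of Ucp3-201 was 1.14 percentage points higher in the cold library, in place of 0.830 lower, and both intervals held 0. Genes at least 2-fold higher and lower numbered 314 and 306. They numbered 520 and 188 with total counts, 298 and 339 with DESeq2 size factors, 93 and 63 with at least 100 reads, and 442 and 393 with at least 1 read. The higher share was 50.6%, and 73.4% with total counts. Genes with an interval above 1 numbered 846, and 1362 with total counts or 513 with at least 100 reads. Those below 1 numbered 852, and 466 or 536. List medians kept their sign with both other scalings, but the median for repressors of Ucp1 turned from 0.12 to -0.18 with at least 100 reads, which left 1 gene, and to -0.33 with at least 1. The median for heat production without Ucp1 was 0.64 with at least 1 read. No paired analysis was possible because each group has 1 library.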
